A study of Mus musculus with 4 samples.

Results

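The serpin genes of the mouse were followed in liver RNA taken 1 day after diethylnitrosamine (DEN), a liver carcinogen that damages DNA once it has been activated in hepatocytes. The members were all genes of the deposited tables whose symbol starts with Serpin, without the pseudogenes marked -ps, which gave 62 of 35522 genes. The study set 2 liver RNA libraries labelled Control against 2 labelled Dph1 KO, all of strain C57BL/6 and all given DEN. Dph1 is needed for the first step of diphthamide formation, the modification of a histidine in elongation factor eEF2. The sources used here do not give the age of the mice, the way Dph1 was deleted, the cells in which it was deleted or any allele that the Controls carry. Livers without DEN were not analysed here.

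Most serpins are protease inhibitors that present an exposed reactive-centre loop as bait. The protease cuts the loop, the inhibitor changes shape, and the enzyme stays trapped in a covalent complex. Hepatocytes make the bulk of the serpins of blood plasma, among them antitrypsin, antithrombin and the C1 inhibitor, and some family members have lost the inhibitory function and carry hormones or act as chaperones.

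Humans have a single antitrypsin gene, and C57BL/6 mice have a row of copies, Serpina1a to Serpina1e with the related Serpina1f, on chromosome 12. The copies differ most where the inhibitor meets its target, so the stretch that encodes the loop shows how the members of the row differ. The 5 sequences below are 87 bases (29 codons) of coding sequence from the conserved hinge of the loop onwards, 5′ to 3′ on the minus strand of GRCm38 (GENCODE M21), each within exon 5 of 5. The Serpina1e stretch lies at chr12:103947093-103947179. Capitals mark the 18 positions, in 11 codons, at which the 5 copies are not all alike.
Serpina1e: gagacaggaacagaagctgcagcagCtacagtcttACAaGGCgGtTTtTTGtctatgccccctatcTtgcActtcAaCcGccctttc
Serpina1a: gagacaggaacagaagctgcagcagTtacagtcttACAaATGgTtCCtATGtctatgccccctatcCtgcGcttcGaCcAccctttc
Serpina1b: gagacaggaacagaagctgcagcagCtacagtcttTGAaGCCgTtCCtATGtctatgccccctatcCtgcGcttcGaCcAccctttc
Serpina1c: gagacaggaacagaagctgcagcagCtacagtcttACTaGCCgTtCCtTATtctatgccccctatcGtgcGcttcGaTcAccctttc
Serpina1d: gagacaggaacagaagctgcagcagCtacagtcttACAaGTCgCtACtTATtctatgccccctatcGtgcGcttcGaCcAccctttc
Serpina1e differed from each of the other copies at 10 to 12 bases of this stretch, and the other copies differed among themselves at 5 to 10. Over the whole reading frame of 1239 bases the 5 copies were 96.3% to 98.5% identical. Of all 50-base windows of the reading frame, 61.0% of those of Serpina1e occurred in no other copy, against 55.3% for Serpina1b, 49.0% for Serpina1d, 25.5% for Serpina1a and 25.3% for Serpina1c. Reads can thus be assigned to Serpina1e more often than to Serpina1a or Serpina1c, and reads that match a single place are given beside the total for these genes.

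The libraries held 19474596 and 20355790 gene reads (Control) and 20410978 and 21137358 (Dph1 KO). Levels are CPM, reads set to a common library total, scaled by TMM factors, which correct for differences in library composition, and are listed in the order Control replicate 1, Control replicate 2, Dph1 KO replicate 1, Dph1 KO replicate 2. Dph1 itself had 1292 and 1228 reads in Control, against 421 and 689 in Dph1 KO (log2 fold change -1.49, SE 0.26, adjusted p = 0.0107 by edgeR). Serpin genes took 6.24% and 5.75% of all gene reads in Control, against 4.96% and 5.11% in Dph1 KO. By TPM, the deposited value per transcript length, their share was 6.71% and 6.03% in Control, against 6.01% and 5.52% in Dph1 KO.

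Of the 62 serpins, 29 had enough reads to be tested. Serpina7 and Serpinb8 rose in Dph1 KO, Serpina1e, Serpina6 and Serpina9 fell, and 24 did not pass an adjusted p of 0.05 (edgeR's quasi-likelihood test, adjusted over 13303 genes). Of all genes tested, 12.3% were called, 4.86% upward and 7.47% downward, so the share of serpins called was near that of all genes. The split of calls over all genes, 646 up and 994 down, depended on scaling, with 2634 up and 789 down by library totals alone and 1072 up and 968 down by upper quartiles. Library totals alone moved the median log2 fold change of all genes up by 0.26. The median log2 fold change of the tested serpins was -0.31, against 0.04 over all tested genes, and 20 serpins were lower and 9 higher in Dph1 KO (scaled by library totals alone, Serpinc1, Serpina3f and Serpina3n of the 20 were higher). In 15 serpins both Dph1 KO libraries lay below both Controls, a pattern that 32.5% of all genes showed, and in 6 both lay above, which 34.9% of all genes showed. The 5 tested Serpina1 copies are among the 15 and the 20. Part of their reads matched more than a single place, so these copies are not separate observations. The labels do not say whether the 2 libraries of a genotype came from separate animals, so a p-value here reflects only how far these libraries spread. In whole liver RNA, fewer cells of a type and less RNA per cell cannot be told apart.

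**Figure D1:**
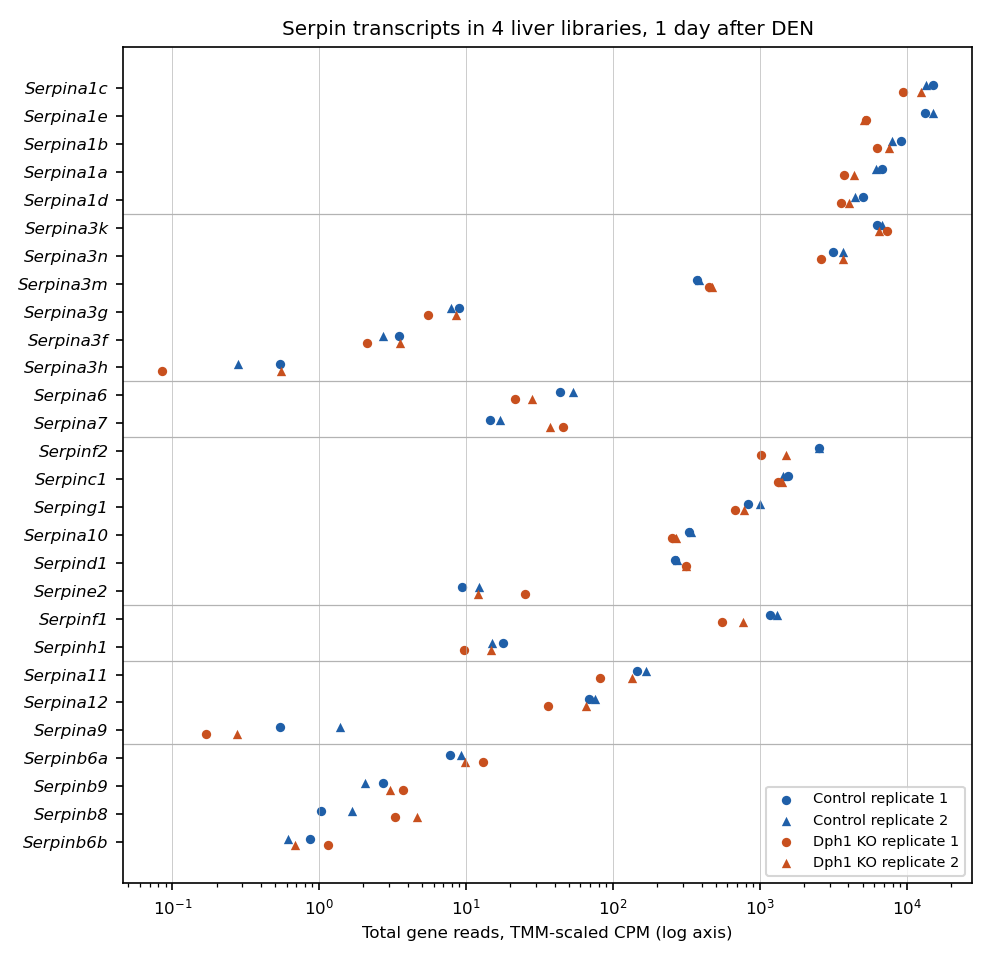
Levels of tested serpins in each library, as TMM-scaled CPM on a log axis, with genes grouped by role (grey lines) and Control in blue, Dph1 KO in orange. The antitrypsin copies and Serpina3k lie at the top of the scale, Serpina1e and Serpina7 show the 2 genotypes well apart in opposite directions, the intracellular serpins (lowest rows) lie between 0.612 and 12.9 CPM, and Serpina3h and Serpina9 reach lower still.

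Human antitrypsin protects tissue from neutrophil elastase. The mouse copies differ in the loop, and which proteases each of them inhibits was not tested. Copies of the mouse gene gave the 3 most abundant serpin transcripts per length in Control, and Serpina1e was the copy that fell. Serpina1e, at chr12:103946931-103956897, had 13344 and 15145 CPM in Control, against 5271 and 5083 CPM in Dph1 KO. Both Dph1 KO libraries lay far below both Controls and close to each other. Its mean was 14245 ± 1274 CPM (SD, n = 2) in Control and 5177 ± 133 CPM (SD, n = 2) in Dph1 KO, which is 36.3% of Control (log2 fold change -1.46, SE 0.32, adjusted p = 0.0234 by edgeR). Reads that matched a single place gave the same drop. Serpina1e had 194930 and 216813 uniquely matched reads in Control, against 96636 and 88443 in Dph1 KO, and with unique reads throughout, the log2 fold change was -1.48 (adjusted p = 0.0215 by edgeR). Unique reads that crossed exon junctions of Serpina1e were at 35.9% of the Control level (CPM) in Dph1 KO, and unique intron reads, 395 and 283 in Control against 73 and 162 in Dph1 KO, were at 28.2%. Without Control replicate 1 the adjusted p of Serpina1e was 0.0501, and without Control replicate 2 it was 0.113.

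None of the 4 other expressed antitrypsin copies was called. Serpina1c, the copy with the lowest share of unique reads, had 15136 and 13401 CPM in Control, against 9419 and 12409 CPM in Dph1 KO (log2 fold change -0.39, SE 0.34). Serpina1b had 9105 and 7931 CPM against 6212 and 7583 CPM (log2 fold change -0.30, SE 0.32). Serpina1a had 6742 and 6135 CPM against 3709 and 4381 CPM (log2 fold change -0.67, SE 0.31, adjusted p = 0.150). The lowest of them, Serpina1d, had 4997 and 4428 CPM against 3572 and 4010 CPM (log2 fold change -0.31, SE 0.30). In each of these copies both Dph1 KO libraries were below both Controls, as in 32.5% of all genes, and by less than in Serpina1e. Part of their reads matched more than a single place, so the 4 copies are not separate observations. By TPM the Serpina1b and Serpina1d means were higher in Dph1 KO (log2 fold change 0.08 each). DESeq2 called Serpina1a (log2 fold change -0.69, adjusted p = 0.0153), where edgeR did not. The sixth gene of the row, Serpina1f, had 0 reads in every library, which allows a level of up to 0.167 CPM (3 reads in the library where a read weighs most, counting error only).

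Unique reads gave the same order of change among the copies. The share of reads that matched 1 place was 77.7% to 79.6% for Serpina1e, 66.4% to 69.0% for Serpina1b, 63.9% to 66.6% for Serpina1d, 42.0% to 44.3% for Serpina1a and 34.9% to 37.5% for Serpina1c. In unique CPM, Serpina1c had 5449 and 4950 in Control, against 3290 and 4655 in Dph1 KO, Serpina1b 6270 and 5458 against 4124 and 5235. Serpina1a had 2935 and 2693 unique CPM in Control, against 1559 and 1941 in Dph1 KO, and Serpina1d 3310 and 2949 against 2282 and 2666. Serpina1e had 10602 and 12058 unique CPM in Control, against 4096 and 4045 in Dph1 KO.

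**Figure D2:**
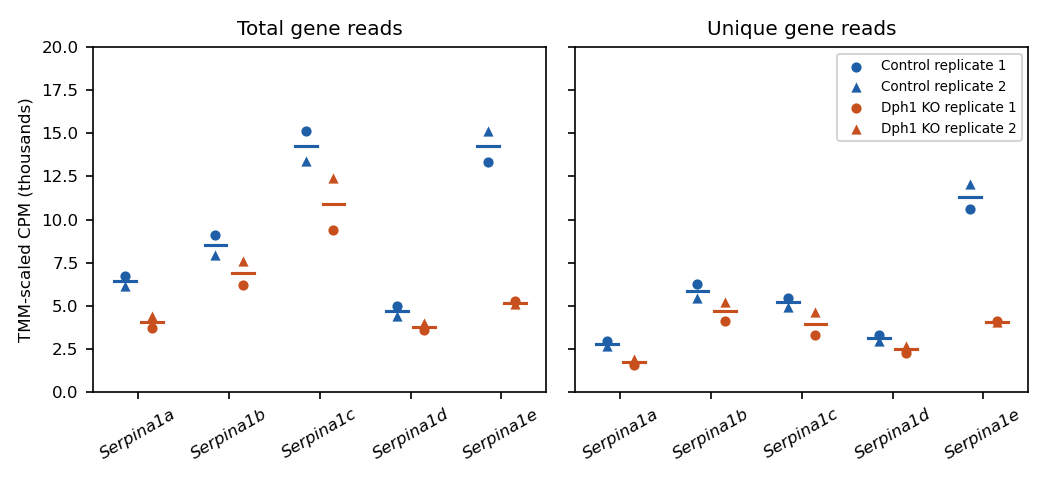
TMM-scaled CPM of the 5 expressed antitrypsin copies in each library, from total gene reads (left) and uniquely matched reads (right), with group means as bars. Serpina1e drops from 14245 to 5177 CPM in total reads and stands apart from the smaller differences of the other copies in both panels.

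Summed over the row, the Serpina1 genes had 48182 ± 1615 CPM (SD, n = 2) in Control, against 30825 ± 3734 CPM in Dph1 KO, or 64.0% of Control, and 59.8% by unique reads. Without Serpina1e the sum was 33938 ± 2889 CPM in Control, against 25648 ± 3867 CPM in Dph1 KO, 75.6% of Control. Serpina1e made up 27.1% and 32.2% of the row's total reads in Control, against 18.7% and 15.2% in Dph1 KO. Of unique reads it made up 37.1% and 42.9% in Control, against 26.7% and 21.8% in Dph1 KO. The log2 ratio of Serpina1e to the other copies together was -1.43 and -1.07 in Control, against -2.12 and -2.48 in Dph1 KO. These ratios did not overlap, and an exact two-sided permutation test of 2 against 2 libraries cannot go below p = 0.333.

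The order of the copies changed with it. Per transcript length, Serpina1e (15541 ± 393 TPM, SD, n = 2) and Serpina1c (15076 ± 2256 TPM) led the serpins in Control and did not differ beyond their spread. In Dph1 KO, Serpina1c led with 14931 ± 548 TPM, followed by Serpina1b (9482 ± 147 TPM), Serpina3k (8254 ± 2083 TPM) and Serpina1e (7494 ± 1366 TPM), and the spread of Serpina3k covered both of its neighbours in that order, while Serpina1e lay below Serpina1b by more than its own SD. Next in Control came Serpina1b with 9006 TPM, Serpina3k with 5874, Serpina1a with 4988 and Serpina1d with 4908. TPM values are not scaled for composition, and on their scale the median gene was higher in Dph1 KO by 0.23 (log2 of TPM + 1). They are read here for the order of means within a genotype, which single libraries did not always keep. Serpina1c lay above Serpina1e in Control replicate 1 (16670.5 against 15262.9 TPM) and below it in Control replicate 2 (13480.6 against 15818.9 TPM).

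The region before the start of Serpina1e was set beside that of Serpina1b because these copies of the same row differed so much in their fold change. The promoter sequences (RefSeq, GRCm38.p6, minus strand, 250 bases before to 50 after the annotated start) are chr12:103956848-103957147 for Serpina1e and chr12:103738140-103738439 for Serpina1b. Capitals mark the bases at which they differ where they align.
Serpina1e: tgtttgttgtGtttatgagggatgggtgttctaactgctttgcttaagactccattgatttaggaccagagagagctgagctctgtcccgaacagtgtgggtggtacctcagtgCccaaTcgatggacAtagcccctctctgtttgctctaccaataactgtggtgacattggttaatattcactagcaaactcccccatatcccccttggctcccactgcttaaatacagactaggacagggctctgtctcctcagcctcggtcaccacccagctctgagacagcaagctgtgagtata
Serpina1b: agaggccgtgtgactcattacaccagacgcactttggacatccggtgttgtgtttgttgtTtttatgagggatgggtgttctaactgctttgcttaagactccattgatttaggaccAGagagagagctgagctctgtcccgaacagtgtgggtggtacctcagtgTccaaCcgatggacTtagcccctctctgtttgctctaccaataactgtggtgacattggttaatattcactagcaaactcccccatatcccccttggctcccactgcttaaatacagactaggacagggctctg
The annotated starts are not at matching places, so the ends of the windows do not align. Over 248 aligned bases, Serpina1e and Serpina1b differed at 4, and Serpina1b had 2 further bases with no partner. Serpina1b was the closest copy to Serpina1e in this region. From Serpina1d, Serpina1a and Serpina1c, which were not called either, Serpina1e differed at 9 of 238, 10 of 243 and 12 of 249 aligned bases. What these differences do was not tested.

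The antichymotrypsin-like row, a second expansion of serpin genes in mice, lies further along chromosome 12, and none of its 6 tested members of 11 was called by edgeR or DESeq2 (0 at an unadjusted p under 0.05). The summed level of the Serpina3 genes was 10296 ± 769 CPM (SD, n = 2) in Control, against 10470 ± 150 CPM in Dph1 KO, 101.7% of Control, and 94.8% to 95.6% of these reads matched a single place. By unique reads the Dph1 KO sum was 101.4% of Control. By library totals alone the log2 ratio of the sums was 0.29, against 0.02 here.

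Its main transcript was Serpina3k, an inhibitor secreted by hepatocytes, with 6211 and 6800 CPM in Control, against 7292 and 6434 CPM in Dph1 KO (log2 fold change 0.08, SE 0.31). Its unique CPM were 5823, 6365, 6799 and 6028. Serpina3n, whose level in liver is known to climb in inflammation, had 3153 and 3646 CPM in Control, against 2614 and 3660 CPM in Dph1 KO (log2 fold change -0.12, SE 0.31), and unique CPM of 3127, 3617, 2596 and 3631. The genotypes overlapped in both genes. Serpina3m had 375 and 383 CPM in Control, against 451 and 469 CPM in Dph1 KO (log2 fold change 0.28, SE 0.24), without overlap, with 93.2% to 94.1% of its reads unique. Serpina3g had 5.47 to 8.92 CPM and Serpina3f 2.12 to 3.52 CPM across the libraries, each with overlapping genotypes. Serpina3h, annotated as a transcribed pseudogene though its symbol lacks -ps, had 10 and 5 reads in Control, against 2 and 12 in Dph1 KO (0.0848 to 0.549 CPM), all of them listed as intron reads. Of the 5 untested members, Serpina3j had 0 reads and Serpina3i had the most, 19 over all libraries.

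Acute phase genes, whose transcripts climb in liver during inflammation, were called in both directions, with more of them higher than lower in Dph1 KO. Of 19 tested, Saa1, Saa2 and Apcs rose and Orm2 and Orm3 fell, against 4.86% of all genes that rose and 7.47% that fell. The median log2 fold change of the 19 was 0.40. At an unadjusted p under 0.05 in edgeR, 6 were higher and 2 lower in Dph1 KO, and DESeq2 called 7. Saa1 had 81.2 and 96.8 CPM in Control, against 182 and 541 CPM in Dph1 KO (log2 fold change 2.02, SE 0.42, adjusted p = 0.0193 by edgeR). The Dph1 KO library with the higher Saa1, replicate 2, also had the higher Serpina3n and Serpina3m of that genotype, but the lower Serpina3k. A link between these levels was not tested.

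The 2 hormone carriers of the family were both called, in opposite directions. Serpina7, at chrX:139079249-139085236, encodes thyroxine-binding globulin, which carries thyroid hormone in plasma and inhibits no protease. It had 14.5 and 17.0 CPM in Control, against 45.7 and 37.2 CPM in Dph1 KO. Both Dph1 KO libraries were above both Controls, with means of 15.7 ± 1.80 and 41.4 ± 6.01 CPM (SD, n = 2 each; log2 fold change 1.40, SE 0.21, adjusted p = 0.00443 by edgeR). Unique exon-junction reads of Serpina7 numbered 50 and 52 in Control, against 162 and 145 in Dph1 KO.

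Serpina6, at chr12:103646632-103657071, encodes corticosteroid-binding globulin, the plasma carrier of glucocorticoids. It had 43.4 and 53.4 CPM in Control, against 21.4 and 28.2 CPM in Dph1 KO, without overlap. The means were 48.4 ± 7.10 and 24.8 ± 4.82 CPM (SD, n = 2 each; log2 fold change -0.96, SE 0.22, adjusted p = 0.0239 by edgeR). Without Control replicate 2 the log2 fold change was -0.81 and the adjusted p 0.169.

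**Figure D3:**
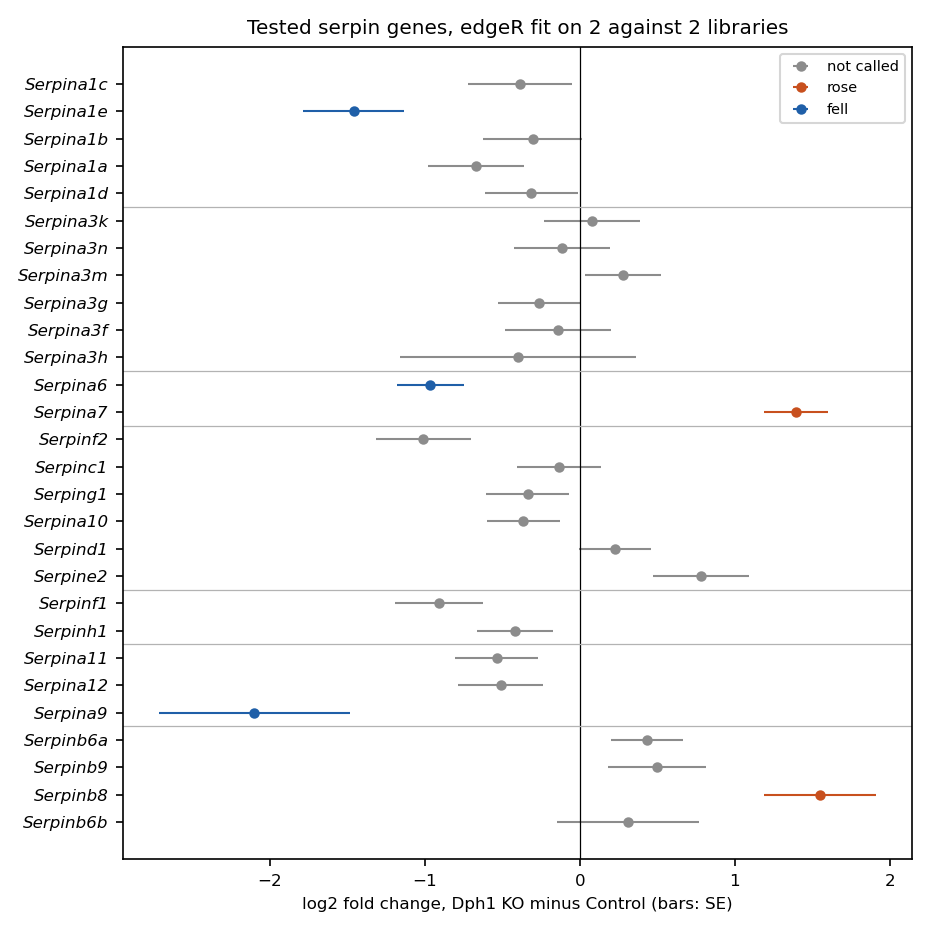
log2 fold change (Dph1 KO minus Control) of tested serpins with its SE from the edgeR fit, grouped by role as in the plot of levels. Orange marks genes that rose, blue genes that fell and grey genes not called, and Serpina7 at 1.40 and Serpina1e at -1.46 lie on opposite sides with SEs of 0.21 and 0.32.

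Serpins of coagulation, fibrinolysis and complement had 7 of 8 members tested, with none called by edgeR (2 at an unadjusted p under 0.05, 1 called by DESeq2) and a median log2 fold change of -0.34. Serpinf2 encodes alpha-2-antiplasmin, the inhibitor of the clot-dissolving protease plasmin. It had 2536 and 2524 CPM in Control, against 1015 and 1495 CPM in Dph1 KO, with both Dph1 KO libraries below both Controls (log2 fold change -1.01, SE 0.31, adjusted p = 0.054 by edgeR). DESeq2 called it (-1.03, adjusted p = 0.000786), and edgeR called it with unique reads (-1.02, adjusted p = 0.0486). With an offset for GC content and length, edgeR did not call Serpinf2 (-0.67, adjusted p = 0.0659). With 1 library left out, the log2 fold change of Serpinf2 ranged from -1.30 to -0.73. Its neighbour Serpinf1, which encodes PEDF, a secreted serpin that inhibits no protease and limits vessel growth, had 1177 and 1303 CPM in Control, against 554 and 769 CPM in Dph1 KO (log2 fold change -0.91, SE 0.28, adjusted p = 0.0596 by edgeR). DESeq2 called it as well (-0.92, adjusted p = 0.00239), and with the offset edgeR did not (-0.55, adjusted p = 0.0903). With 1 library left out, the log2 fold change of Serpinf1 ranged from -1.15 to -0.66.

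Both genes lie near Dph1 on chromosome 11, Serpinf1 219.5 kb from it. Of 25 other genes tested within 500 kb of Dph1, which include these 2 serpins, 2 rose and 0 fell by edgeR, and the median log2 fold change was 0.02.

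No other plasma inhibitor of this group was called. Serpinc1, antithrombin, the heparin-activated inhibitor of thrombin and factor Xa, had 1543 and 1444 CPM in Control, against 1316 and 1404 CPM in Dph1 KO (log2 fold change -0.13, SE 0.27). Serping1, the C1 inhibitor, had 831 and 1003 CPM against 674 and 778 CPM (log2 fold change -0.34, SE 0.27). Serpina10, the inhibitor of factor Xa that works with protein Z, had 327 and 341 CPM against 252 and 267 CPM (log2 fold change -0.36, SE 0.24). Serpind1, heparin cofactor II, had 263 and 272 CPM against 313 and 312 CPM (log2 fold change 0.23, SE 0.23). Their adjusted p lay from 0.288 to 0.750. In each of these 4 the genotypes did not overlap, as in 32.5% (lower) and 34.9% (higher) of all tested genes. Serpind1 lies inside Pi4ka, which is read from the opposite strand, and the sources used here do not say whether counting used strand.

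Serpine2 (protease nexin-1), an inhibitor of thrombin and of plasminogen activators, had 9.41 and 12.2 CPM in Control, against 25.0 and 12.1 CPM in Dph1 KO, with Dph1 KO replicate 1 above the other 3 libraries (log2 fold change 0.78, SE 0.31, edgeR adjusted p = 0.108, and 0.19 without that library). Serpina5, the protein C inhibitor, had 8 reads over all libraries and was not tested.

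Serpinh1 encodes HSP47, the collagen chaperone of the endoplasmic reticulum, which inhibits no protease. It had 17.8 and 14.9 CPM in Control, against 9.62 and 14.9 CPM in Dph1 KO (log2 fold change -0.42, SE 0.24). With an offset for GC content and length, Serpinh1 was at -0.0036, and with 1 library left out it ranged from -0.75 to -0.11. Of the collagen-producing cells' markers, 2 of 8 fell (Col1a1 and Des), against 7.47% of all genes. At an unadjusted p under 0.05 in edgeR, 3 of the 8 were lower in Dph1 KO and 1 was higher. Lrat, of the same list, was higher without overlap and not called (log2 fold change 0.84, SE 0.27). The 8 markers summed to 181 and 200 CPM in Control, against 166 and 162 CPM in Dph1 KO.

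Of the other secreted serpins, 3 of 6 were tested and Serpina9 fell. Serpina11 had 146 and 167 CPM in Control, against 81.0 and 135 CPM in Dph1 KO (log2 fold change -0.54, SE 0.27). Serpina12, vaspin, had 68.6 and 75.9 CPM against 35.8 and 65.5 CPM (log2 fold change -0.51, SE 0.27). In both, Dph1 KO replicate 1 was the lowest library. With an offset for GC content and length, Serpina11 was at -0.062 and Serpina12 at -0.53. Serpina9, known from germinal-centre B cells, had 10 and 25 reads in Control, against 4 and 6 in Dph1 KO (log2 fold change -2.10, SE 0.62, adjusted p = 0.0497 by edgeR). Its call was lost without Control replicate 2 (log2 fold change -1.28, adjusted p = 0.470), without Dph1 KO replicate 1 (-1.76, adjusted p = 0.167) and with an offset for GC content and length (-1.98, adjusted p = 0.0747). Of 3 tested markers of B and plasma cells, Cd79a fell, and the sum of that marker list was 5.66 and 6.56 CPM in Control, against 3.81 and 3.25 CPM in Dph1 KO. The part of B cells in the Serpina9 result was not tested.

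The intracellular clade B serpins, which protect cells from proteases released inside them, were the largest group, with 27 members, and 12 of them had 0 reads. Of the 4 tested members, Serpinb8 rose and 3 were not called. The median log2 fold change of the 4 was 0.47, against 0.48 over all tested genes in the class of lowest GC content, which holds 3 of them (Serpinb8, Serpinb9 and Serpinb6a). With an offset for GC content and length, Serpinb9, Serpinb6a and Serpinb6b were at 0.045, 0.038 and 0.038. Serpinb8, at chr1:107590006-107608978, had 19 and 30 reads in Control, against 77 and 102 in Dph1 KO, or 1.03 and 1.67 CPM against 3.26 and 4.67 CPM. The genotypes did not overlap (log2 fold change 1.55, SE 0.36, adjusted p = 0.0271 by edgeR). Without Control replicate 1 the adjusted p was 0.129.

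Serpinb9, the inhibitor of granzyme B, had 2.72 and 2.06 CPM in Control, against 3.73 and 3.02 CPM in Dph1 KO (log2 fold change 0.50, SE 0.31). Serpinb6a had 7.72 and 9.18 CPM against 12.9 and 9.88 CPM (log2 fold change 0.43, SE 0.23) and overlaps Nqo2 on the opposite strand. Serpinb6b had 0.612 to 1.14 CPM with overlapping genotypes. Blood and tissue immune cells can bring such transcripts. The summed Kupffer cell and macrophage markers were 283 and 296 CPM in Control, against 172 and 290 CPM in Dph1 KO, with overlapping genotypes. Cd68 fell as the 1 call among 7 tested (log2 fold change -1.18), and the median log2 fold change of the 7 was 0.08. T and NK cell markers summed to 1.63 to 3.11 CPM and neutrophil markers to 2.67 to 5.26 CPM over the libraries, but only 1 of 8 and 3 of 8 of them had enough reads to be tested, with none called by edgeR or DESeq2 and 0 at an unadjusted p under 0.05. Their part in the clade B levels was not tested.

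Of the 33 members not tested, 15 had no read, 9 had 1 to 3 reads over all libraries and 9 had more, the most being 31 for Serpini1, neuroserpin. Serpinb1a, an inhibitor of neutrophil proteases, had 17 reads.

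Fold changes in this comparison went with the GC content of transcripts. In 5 classes of tested genes of equal size, from the lowest to the highest GC content, the median log2 fold change was 0.48, 0.29, 0.06, -0.23 and -0.56. Serpina7 (38.7% GC) and Serpinb8 (41.5% GC) lay in the class of lowest GC, and Serpina1e (52.3% GC) in the next to highest. With GC content and length entered as an offset, Serpina7 was at 0.95 (adjusted p = 0.00959 by edgeR) and Serpina1e at -1.21 (adjusted p = 0.015), both still called, and Serpinb8 was at 1.12 (adjusted p = 0.105). Serpina1b, with 51.8% GC, lay in the same class as Serpina1e.

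**Figure D4:**
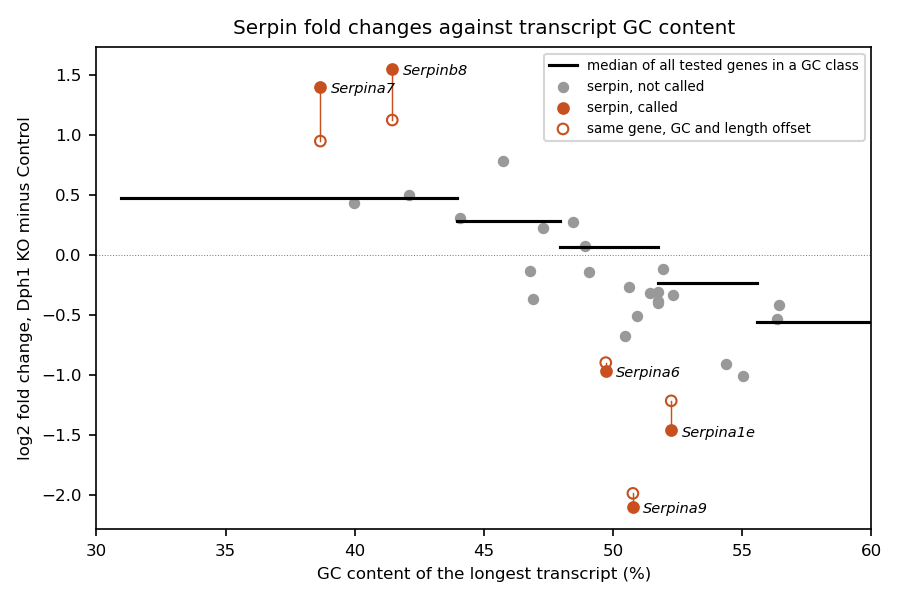
log2 fold change of the tested serpins against the GC content of the longest transcript, with black lines at the median of all tested genes in each of 5 GC classes (the highest class goes on beyond the axis) and open circles for the called serpins after an offset for GC content and length. Serpina7 moves from 1.40 to 0.95 and Serpina1e from -1.46 to -1.21.

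The wider protease system was described from lists of genes around the serpins, whose counts are read beside the 4.86% of all genes that rose and the 7.47% that fell. Of 26 tested genes of a list of proteases, many of them serpin targets, with the cofactor F3 among them, 2 rose and 0 fell by edgeR and 3 were called by DESeq2. At an unadjusted p under 0.05, 2 were higher and 4 lower in Dph1 KO. F9, coagulation factor IX, had 43.0 and 49.9 CPM in Control, against 102 and 69.9 CPM in Dph1 KO (log2 fold change 0.89, SE 0.24, adjusted p = 0.0388), and Ctss, cathepsin S, rose as well (log2 fold change 0.78, SE 0.22). F2 (prothrombin, 0.09) and Plg (plasminogen, -0.05), the target of alpha-2-antiplasmin, were not called. Of 26 tested inhibitors outside the serpin family, 1 rose and 4 fell, 5 calls where 12.3% of all genes were called. Tfpi2 rose (log2 fold change 0.95), and Spint1 (-1.58), Slpi (-1.10), Timp2 (-0.89) and Timp3 (-0.83) fell. Agt, angiotensinogen, which has the serpin fold under another name, had 1056 and 968 CPM in Control, against 612 and 852 CPM in Dph1 KO and was not called (log2 fold change -0.47).

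None of 11 cofactors and receptors of serpins was called by edgeR or DESeq2, with 3 at an unadjusted p under 0.05 in edgeR. Vtn, vitronectin, had 5021 and 6055 CPM in Control, against 3024 and 4519 CPM in Dph1 KO (log2 fold change -0.55, SE 0.33). Lrp1, the receptor that clears serpin complexes, was at 1572 to 1850 CPM over the 4 libraries. Of 19 regulators of serpin genes in liver, Hsf1 fell (log2 fold change -0.81, SE 0.22, adjusted p = 0.0397 by edgeR) and none rose. The hepatocyte markers, 7 tested and none called by edgeR or DESeq2 (0 at an unadjusted p under 0.05), summed to 52338 and 65538 CPM in Control, against 55690 and 59006 CPM in Dph1 KO, with Alb the largest part. Whether the share of hepatocytes has a part in any serpin result was not tested.

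The calls rest on 2 libraries a group, and each count of serpins is best read beside the share of all genes called in the same way. At an unadjusted p under 0.05, edgeR had 3 serpins higher and 5 lower in Dph1 KO, with 34.2% of all genes past that level in either direction. Without Dph1 KO replicate 2, it called 4 serpins upward and 8 downward of 30 tested (39.3% of all genes called). Without Control replicate 2 it called 2 upward and 0 downward (3.82%), without Control replicate 1, 1 upward and 2 downward (5.43%), and without Dph1 KO replicate 1, 2 upward and 2 downward (9.74%). With the GC and length offset, 1 serpin rose and 2 fell (8.91%), and DESeq2 called 2 upward and 5 downward (15.9%). With DESeq2's size factors in edgeR (12.8%), or a filter of 10 reads in 2 libraries (12.6%), 2 rose and 3 fell. Without a low-count filter, 2 rose and 5 fell (2233 of 20324 genes called), and with total exon reads 2 rose and 4 fell (15.4%). By library totals 3 rose and 4 fell (25.7%), by upper quartiles 2 and 4 (15.3%), and with unique reads 2 and 4 (12.3%). Limma-trend on TPM called no serpin, with 0.0226% of all genes called on log2(TPM + 1) and 0.173% on log2(TPM + 0.1).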

How the data were processed

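The members and gene lists were chosen with earlier results of these data known. Every serpin could be named, although 1 tested member is not reported here and stays in the counts, and called genes of each list were named, or the most abundant where none was called.

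Per the labels' protocols, liver RNA was made into stranded mRNA libraries, and per the submitters' processing notes the build was GRCm38 (mm10). The sources used here name no aligner or counter and do not say whether strand was used. Per the file headers, the authors deposited TPM and whole-number counts of reads, total and unique, for the genes, exons, junctions and introns. The sources used here do not say how reads with several matches were assigned. Deposited RPKM values and read ratios, given as a fraction, were not used.

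Total gene reads (19474596 to 21137358 per library) were filtered by filterByExpr, scaled by TMM (factors for Control 0.945 and 0.884, for Dph1 KO 1.16 and 1.04) and tested with edgeR 4.0.16 (glmQLFit, glmQLFTest; R 4.3.3) with a term for genotype alone. Benjamini-Hochberg adjustment covered 13303 genes, with a threshold of 0.05. The SE is the log2 fold change divided by the square root of F. The biological coefficient of variation was 18.5%. Cluster sums carry no test. GC content came from GENCODE M21 and the offset from mgcv 1.9.3. Alternatives were other scalings, filters, read classes, DESeq2 1.42.0, limma-trend (limma 3.58.1) on log2(TPM + 1) and log2(TPM + 0.1), the offset, and each library left out. On simulated counts (13124 genes tested), recovery was 10.4% for 1.5-fold changes, 62.7% for 2-fold and 100% for 4-fold, and 5 of 120 calls were false.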

Additional observations from a re-analysis of the deposited data

How the results depend on the processing

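Of all log2 fold changes of single serpins under the 15 alternatives, 25 had the opposite sign to the value reported, in 9 genes, and edgeR had called none of these genes. With the library total alone, Serpinc1 was at 0.12, Serpina3f at 0.10 and Serpina3n at 0.14. With log2(TPM + 1), Serpinc1 was at 0.25, Serping1 at 0.043, Serpina1b at 0.084, Serpina1d at 0.078, Serpina3f at 0.13, Serpina3g at 0.072 and Serpina3n at 0.25, and with log2(TPM + 0.1) at 0.25, 0.043, 0.084, 0.078, 0.19, 0.083 and 0.25. With the GC and length offset, Serpina3n was at 0.035. Without Control replicate 1, Serpina3f was at 0.04 and Serpina3h at 0.15. Without Dph1 KO replicate 1, the values that changed sign were those of Serpina3f, Serpina3g, Serpina3h, Serpina3n and Serpinb6b. With 1 library left out, Serpina3f ranged from -0.54 to 0.20, Serpina3g from -0.60 to 0.045, Serpina3h from -2.19 to 0.43, Serpina3n from -0.36 to 0.13 and Serpinb6b from -0.089 to 0.63. The log2 ratio of the Serpina1 sum was -0.39 by library total and -0.77 to -0.53 with 1 library left out. That of the Serpina3 sum was 0.29 by library total, -0.0055 with DESeq2's size factors, 0.10 by upper quartile and -0.050 to 0.10 with 1 library left out. The cause of these shifts was not tested.

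Counts moved as follows. The GC and length offset left 1 serpin that rose, 652 genes that fell, and 1 target protease, 2 other inhibitors and 0 regulators called. Without a low-count filter, 5 serpins fell, and 4 target proteases, 2 cofactors and 2 regulators were called. DESeq2 gave 5 serpins that fell and 3 regulators. By library total, 2634 genes rose, and 5 target proteases, 1 cofactor, 6 regulators and 10 acute phase genes were called. By upper quartile, 1072 genes rose and 8 acute phase genes were called. Total exon reads gave 4 target proteases and 2 regulators, and DESeq2's size factors, the filter of 10 reads in 2 libraries and unique reads gave 2 regulators each. Limma-trend on log2(TPM + 1) called 2 genes up and 1 down, and on log2(TPM + 0.1) 13 up and 10 down, with 0 serpins, target proteases, other inhibitors, regulators and acute phase genes in either (edgeR called 8 serpins at an unadjusted p under 0.05). Dph1 was then at -1.20 and -1.23 and not called. With 1 library left out, 1 to 4 serpins rose and 0 to 8 fell, 180 to 2599 genes rose and 346 to 2806 fell, and 0 to 8 target proteases, 1 to 10 other inhibitors, 0 to 3 cofactors, 0 to 7 regulators and 3 to 10 acute phase genes were called, with Dph1 at -1.94 to -1.11.

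Serpina7 was called in every alternative except limma-trend on TPM, and its log2 fold change ranged from 0.95 to 1.78. A lone library in a genotype is assumed to vary as the other pair does. No paired analysis was possible because the labels give no replicate numbers that tie a Control library to a Dph1 KO library.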

Other observations

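Intron reads of Serpina3k varied more between the Dph1 KO libraries than its gene reads. Unique intron reads of Serpina3k were 811 and 892 in Control, 244 in Dph1 KO replicate 1 and 2097 in Dph1 KO replicate 2, or 44.1, 49.6, 10.3 and 95.9 CPM, while its exon-junction reads were at 1134, 1239, 1244 and 1145 CPM. For Serpina3n, unique intron reads were at 20.2, 20.7, 24.0 and 41.0 CPM in the same order.

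Epidermal markers were near the detection limit, with sums of 3.37 and 4.67 CPM in Control and 1.48 and 2.15 CPM in Dph1 KO, and Krt5 fell among 3 tested (log2 fold change -2.60, edgeR adjusted p = 0.0207). Of the marker lists of bile duct, pancreas, endothelium and of erythroid cells and platelets, 5, 1, 8 and 3 genes were tested. None of these was called by edgeR or DESeq2, with 2, 0, 1 and 0 at an unadjusted p under 0.05 in edgeR.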
